A study of Mus musculus with 12 samples.

Results

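The metallothionein and iron-handling genes Mt1, Mt2, Fth1, Ftl1, Tfrc, Slc40a1, Slc11a2, Slc39a14 and Steap4 were followed in isolated islets of C57BL/6J mice. They were taken by symbol from the count table, where all 9 had a row among 14089 genes and all 9 passed the filter on low counts. That filter removed 0 genes of the table. The islets were cultured for 24 hours in 4 groups of 3 libraries each. They received vehicle, ML351 at 10 µM, a mixture of 5 ng/ml interleukin-1β, 10 ng/ml tumour necrosis factor α and 100 ng/ml interferon γ (cytokines), or that mixture with ML351 at 10 µM (the combination). ML351 blocks 12/15-lipoxygenase, which oxidizes polyunsaturated fatty acids, and by its title the study concerns oxidative stress of β cells in models of type 1 diabetes. The labels name no genetic change in any group, and whole islets were sequenced, so each value is a mixture of endocrine, ductal, vascular and immune cells. In such bulk samples fewer cells of a type and less RNA per cell cannot be told apart.

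Metallothioneins are small cysteine-rich proteins that bind zinc and copper, and their genes are switched on through metal response elements (MREs) by the zinc sensor MTF1. Iron enters a cell mostly on transferrin through the transferrin receptor, is reduced by STEAP proteins, and leaves the endosome through the transporter DMT1. It is stored inside ferritin, a shell of heavy and light chains, and is exported by ferroportin. Iron regulatory proteins bind hairpins called iron-responsive elements (IREs). At the start of a message such a hairpin blocks translation, and at its end it protects the message from decay. β cells hold much zinc in their insulin granules and are known for modest antioxidant defences, for which free iron matters.

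Totals ran from 20208286 to 27193026 counts per library, and values below are counts scaled to library size (CPM) by the TMM method of edgeR. The label of islets was checked on 10 β-cell markers (insulin genes included), all found, whose summed level was 257000 to 380000 CPM over all libraries. That sum is mostly insulin and Iapp message. In edgeR 8 of the 10 fell with cytokines (median log2 fold change -2.95), such as Slc2a2 from 348 to 393 CPM with vehicle to 22 to 25.1 CPM. Summed α-cell markers (5 of 5 found) were at 34900 to 39100 CPM with vehicle and 723 to 1350 CPM with cytokines, and all 5 fell. Delta-cell markers went from 1440 to 1500 CPM to 99.6 to 145 CPM (4 of 4 fell). Ductal markers went the other way, from 773 to 940 CPM to 1750 to 2320 CPM (4 of 6 rose). Among stellate and fibroblast markers 6 of 8 fell, with a sum going from 108 to 340 CPM to 44 to 70.5 CPM. Of all genes 35.3% rose and 37.2% fell with cytokines. The part of these cell types in the results on the 9 genes was not tested. Acinar markers (13 of 14 found) were at 152 to 560 CPM with vehicle, 91.1 to 215 CPM with ML351, 34.3 to 784 CPM with cytokines and 888 to 1290 CPM with the combination. None of 6 red-cell markers had a row. Their RNA may still be present, since the table held no gene with a third-highest library under 0.503 CPM. Replicates are named by the numbers in the labels, which do not say whether libraries came from separate animals or cultures. The p-values therefore measure only the spread between these libraries, which may be technical. Fold changes are log2 values with their standard error (SE) from the edgeR quasi-likelihood test over all genes, with a gene called at an adjusted p under 0.05.

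All 9 genes were called for cytokines against vehicle, though the call of Slc39a14 was lost in 4 of 20 alternative analyses. Of the 9, 8 rose and 1, Slc40a1, fell against vehicle in the edgeR test. Cytokines changed most of the transcriptome, so this count says little on its own: 72.5% of all genes were called, 35.3% as higher and 37.2% as lower. The vehicle and cytokine libraries were fully separated for all 9, as they were for 76.6% of all genes. The median log2 fold change of the 9 was 1.957 and that of all genes was -0.024. With ML351 present in both arms, 7 rose, 1 fell and Slc39a14 was not called. There 71.5% of all genes were called, 35.2% as higher and 36.4% as lower, and 8 of the 9 genes had groups that did not overlap against 74% of all genes. Together the 9 genes held 0.284% to 0.33% of counts in libraries without cytokines and 1.05% to 1.17% in those with them.

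**Figure D1:**
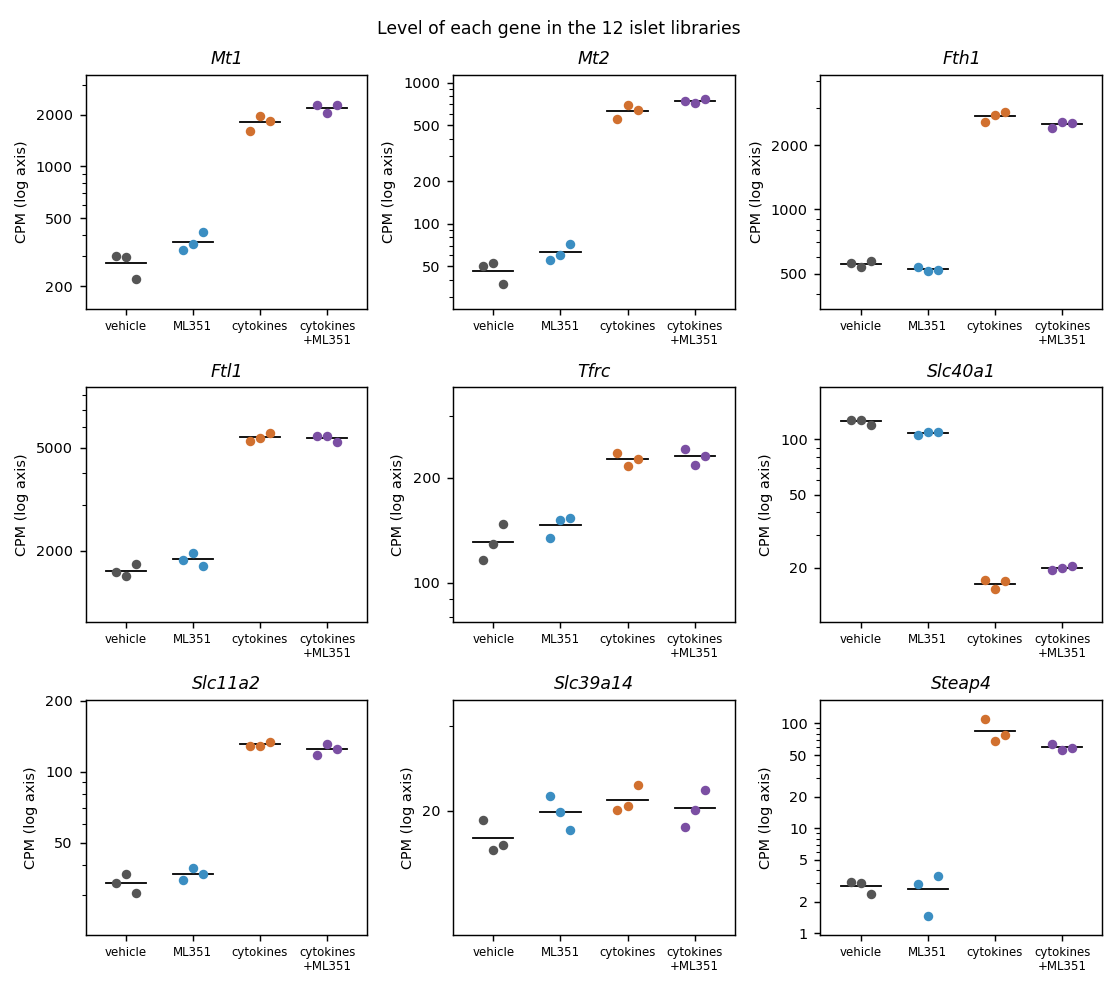
Level of each gene in CPM (log axis) by treatment group, 1 point per library and a bar at the group mean of 3. Mt1 lies at 222 to 299 CPM with vehicle and at 1610 to 1960 CPM with cytokines, while Slc40a1 goes the other way, from 120 to 128 CPM down to 15.2 to 17 CPM.

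Mt1 and Mt2 lie next to each other on chromosome 8 of GRCm38 (Mt1 at chr8:94179082-94180327, Mt2 at chr8:94172664-94173568, both on the + strand) and encode the metallothioneins found in most tissues. Mt2 showed the larger rise. It was at 49.9, 52.3 and 37.4 CPM in vehicle replicates 1, 2 and 4, and at 554, 691 and 636 CPM in cytokine replicates 1, 3 and 4. The lowest cytokine library was above the highest vehicle library by a wide margin. The log2 fold change was 3.75 (SE 0.14, edgeR adjusted p = 2.8e-10), a 13.5-fold rise.

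Mt1 was, per kilobase, the more abundant of the pair in every group. Its CPM was 299, 297 and 222 with vehicle and 1610, 1960 and 1850 with cytokines, again without overlap. The log2 fold change was 2.73 (SE 0.13, edgeR adjusted p = 2.8e-09), a 6.63-fold rise. Mt2 overlaps the antisense gene Gm45774 over 749 bases, and libraries without strand cannot separate their reads where exons are shared. Here and below such overlaps are of whole genes, introns included, and no overlapping gene named had a row. In both genes vehicle replicate 4 was the lowest vehicle library and cytokine replicate 1 the lowest cytokine library. That cytokine library also had the fewest acinar marker counts of its group, at 34.3 CPM against 540 and 784 CPM. ML351 replicate 3 went the other way, with the lowest acinar sum of its group (91.1 CPM against 182 and 215 CPM) and the highest Mt1 and Mt2 (416 and 72.1 CPM). The part of acinar RNA in the metallothionein levels was not tested. Across the 12 libraries the deviations of Mt1 and Mt2 from their group means had a Pearson r of 0.98, which describes libraries that share depth and scaling.

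With ML351 in both arms Mt1 and Mt2 rose as well. Mt2 was at 55.4, 60.3 and 72.1 CPM with ML351 and at 746, 714 and 761 CPM with the combination (log2 fold change 3.56, SE 0.14, edgeR adjusted p = 4.2e-10). Mt1 was at 326, 353 and 416 CPM with ML351 and at 2270, 2050 and 2290 CPM with the combination (2.59, SE 0.13, adjusted p = 4.6e-09). For both genes every combination library was above every cytokine library.

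The balance of the pair shifted. Per kilobase of the main transcript, the Mt1 level was 5.57, 5.29 and 5.52 times that of Mt2 in the vehicle libraries and 2.71, 2.64 and 2.71 times in the cytokine libraries. It was 5.43 ± 0.055 times with ML351 and 2.77 ± 0.0907 times with the combination (SD, n = 3 each). The groups with and without cytokines did not overlap. A two-sided exact permutation test of log2 ratios gave p = 0.1 for cytokines against vehicle, the smallest that 3 against 3 can give, and 0.12 after Benjamini-Hochberg adjustment over the 12 ratio comparisons made.

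The DNA before the starts of Mt1 and Mt2 is shown because MREs lie there. The window of 250 bases before the RefSeq start of Mt2 (GRCm38.p6, chr8:94172368-94172617, + strand) held 3 matches to the MRE letters TGCACNC or TGCGCNC on either strand, in capitals.
Mt2 promoter: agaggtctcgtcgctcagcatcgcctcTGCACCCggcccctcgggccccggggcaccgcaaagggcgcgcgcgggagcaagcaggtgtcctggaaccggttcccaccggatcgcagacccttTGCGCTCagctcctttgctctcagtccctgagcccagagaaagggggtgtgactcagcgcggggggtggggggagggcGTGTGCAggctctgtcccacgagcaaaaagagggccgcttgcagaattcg
Counted from the start, the matches lay at -223 to -217, -128 to -122 and -50 to -44. Of 32841 RefSeq windows of this length 21.4% held such a match and 1.26% held 3 or more. The same window also held 1 match to the antioxidant response letters TGACNNNGC, found in 10.2% of windows.

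For Mt1 the RefSeq window (chr8:94178839-94179088) held 1 MRE match. GENCODE places Mt1 transcripts at 3 starts, 94179082, 94179211 and 94179241, and 5 MRE matches lay in the 250 bases before the last of them, a window chosen among the starts for its matches and so not set against the share of RefSeq windows. They are shown in 3 stretches of 30 bases (GRCm38, + strand), with the matches in capitals.
Mt1 chr8:94179061-94179090: cgctgTGCACACtggcgctccagggagctc
Mt1 chr8:94179086-94179115: agctcTGCACTCcgcccgaaaagTGCGCTC
Mt1 chr8:94179168-94179197: ctgctGGGTGCAaacccttTGCGCCCggac
MRE letters were not limited to the metallothioneins. The first of 2 RefSeq windows of Tfrc held 2 overlapping matches, at -53 to -47 and -50 to -44, and 5.18% of all windows held 2 or more. The windows of Fth1, Ftl1 and Steap4 held none. A letter match is a description and shows no binding. Mtf1, whose product reads these elements, was at 36.5, 36.1 and 39.2 CPM with vehicle and at 39.2, 37.7 and 33.9 CPM with cytokines. Its log2 difference was -0.01 (SE 0.073, edgeR adjusted p = 0.89), a sign that turned with DESeq2 size factors (0.01).

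Fth1 and Ftl1 encode the heavy and light chains of ferritin, the iron store. Fth1 (chr19:9980598-9985098) was at 560, 536 and 573 CPM with vehicle and at 2570, 2780 and 2870 CPM with cytokines. Every cytokine library was far above every vehicle library, and the log2 fold change was 2.30 (SE 0.058, edgeR adjusted p = 1.1e-15). Ftl1 (chr7:45457944-45459884, - strand) was at 1650, 1590 and 1770 CPM with vehicle and at 5300, 5480 and 5720 CPM with cytokines. Its rise was smaller, with a log2 fold change of 1.72 (SE 0.061, adjusted p = 9.4e-14).

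With ML351 in both arms Fth1 went from 538, 512 and 517 CPM to 2420, 2570 and 2540 CPM in the combination (log2 fold change 2.27, SE 0.058, edgeR adjusted p = 1.4e-15). Ftl1 went from 1840, 1950 and 1750 CPM to 5560, 5540 and 5290 CPM (1.56, SE 0.061, adjusted p = 3.3e-13). Both chains thus rose in both settings. Per kilobase the light chain exceeded the heavy chain 4.63 ± 0.109 times with vehicle, 5.46 ± 0.36 times with ML351, 3.10 ± 0.074 times with cytokines and 3.36 ± 0.174 times with the combination (SD, n = 3 each). No pair of groups compared overlapped in this ratio (two-sided exact permutation p = 0.1 in each of the 4 comparisons, the smallest possible; 0.12 adjusted). GENCODE lists 5 ferritin pseudogenes by name, Fth-ps2, Fth-ps3, Ftl1-ps1, Ftl1-ps2 and Ftl2-ps, and how reads shared with such copies were assigned is not given in the sources used here, so ferritin levels are uncertain to that extent. Ftl1 also overlaps Gm22133 (109 bases) and Gm10252 (416 bases).

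Both ferritin messages, and that of ferroportin, hold an IRE in the 5′ untranslated region (UTR), and that of the transferrin receptor holds several in the 3′ UTR. A search of GENCODE M21 transcripts for the letters C, 5 bases, CAGTGN and 5 bases pairing with the first 5 found them. The hairpins are shown as DNA of the message strand with the 6-base loop in capitals.
Fth1, 5′ UTR, chr19:9982732-9982761, + strand: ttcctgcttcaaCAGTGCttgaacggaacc
Ftl1, 5′ UTR, chr7:45459778-45459807, - strand: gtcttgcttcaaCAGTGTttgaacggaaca
Slc40a1, 5′ UTR, chr1:45925464-45925493, - strand: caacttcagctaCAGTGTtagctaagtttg
Tfrc, 3′ UTR, chr16:32631219-32631248, + strand: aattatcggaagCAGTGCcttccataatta
Tfrc, 3′ UTR, chr16:32631598-32631627, + strand: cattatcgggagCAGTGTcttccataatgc
Tfrc, 3′ UTR, chr16:32631663-32631692, + strand: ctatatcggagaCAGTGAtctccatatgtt
Tfrc, 3′ UTR, chr16:32631710-32631739, + strand: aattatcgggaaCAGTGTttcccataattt
Of 22500 coding genes 0.138% held such a match in a 5′ UTR and 0.64% in a 3′ UTR. The same letters were not found in the UTRs of Slc11a2, Slc39a14, Steap4, Mt1 or Mt2. The search asked for 5 fully paired bases, so it misses hairpins with a bulge or mismatch. A lack of match therefore does not show that a message, such as that of Slc11a2, has no IRE. Control through a 5′ hairpin acts on translation, which RNA counts do not measure. The messages with the 5′ element moved apart in RNA level, since Fth1 and Ftl1 rose and Slc40a1 fell.

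Tfrc (chr16:32608920-32632794), the transferrin receptor that takes up transferrin-bound iron, rose moderately. It was at 116, 129 and 147 CPM with vehicle and at 235, 216 and 226 CPM with cytokines. The groups did not overlap, and the log2 fold change was 0.79 (SE 0.079, edgeR adjusted p = 8.1e-08). Against ML351 libraries at 134, 151 and 153 CPM, the combination libraries were at 242, 218 and 231 CPM (0.66, SE 0.078, adjusted p = 8.1e-07). Both ferritin messages thus had a larger fold change than that of the receptor. Per kilobase, the sum of Fth1 and Ftl1 was 73.4 to 87.9 times the Tfrc level in vehicle libraries and 149 to 170 times in cytokine libraries.

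Slc11a2 (chr15:100387898-100425072, - strand) encodes DMT1, which moves ferrous iron across the endosomal or plasma membrane. It was at 33.7, 36.7 and 30.5 CPM with vehicle and at 129, 129 and 134 CPM with cytokines. The cytokine libraries lay close together and well above the vehicle ones, with a log2 fold change of 1.96 (SE 0.073, edgeR adjusted p = 1.8e-13). With ML351 it rose from 34.5, 39 and 36.6 CPM to 118, 131 and 125 CPM (1.76, SE 0.072, adjusted p = 6.6e-13). The coding gene Gm5475 overlaps 2926 bases of it on the other strand, with the same limit.

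Slc39a14 (chr14:70303469-70351425, - strand) encodes ZIP14, a carrier of zinc, manganese and iron that is not bound to transferrin. It changed least of the 9. It was at 19.1, 16.6 and 17 CPM with vehicle and at 20.1, 20.5 and 22.6 CPM with cytokines, where the closest libraries of both groups almost touched. The log2 fold change was 0.26 (SE 0.098, edgeR adjusted p = 0.024). The call ended with library totals as the only scaling (adjusted p = 0.091), without vehicle replicate 2 (0.086) or 4 (0.072) and without cytokine replicate 4 (0.1). Between ML351 at 21.5, 19.9 and 18.2 CPM and the combination at 18.5, 20.1 and 22.1 CPM the groups overlapped fully. The log2 difference there was 0.03 (SE 0.097, adjusted p = 0.81), and its sign turned with library totals as the only scaling (-0.05).

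Steap4 (chr5:7960457-7982213), a ferric and cupric reductase of endosomes and the plasma membrane that is known to respond to inflammation, rose most. It went from 3.06, 3.04 and 2.39 CPM with vehicle to 111, 67.5 and 77.6 CPM with cytokines. Cytokine replicate 1 stood above the other cytokine libraries, and the log2 fold change was 4.91 (SE 0.28, edgeR adjusted p = 1.2e-07), a 30.1-fold rise. With ML351 it went from 2.93, 1.46 and 3.54 CPM to 63.9, 56.2 and 58.9 CPM (4.51, SE 0.28, adjusted p = 2.5e-07). The smallest rise against vehicle among the alternatives was 4.69, reached without cytokine replicate 1, so the rise did not rest on that library.

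The STEAP family did not move as one. Steap1 rose from 2.80, 2.76 and 2.76 CPM to 20.6, 21.3 and 21.9 CPM (log2 fold change 2.94, SE 0.15, edgeR adjusted p = 8.4e-12). Steap3, the reductase of the transferrin cycle in red-cell precursors, rose from 1.15, 1.40 and 1.57 CPM to 4.03, 5.49 and 4.18 CPM (1.73, SE 0.28, adjusted p = 2.4e-05). Steap2 was at 43.5, 44.5 and 39.4 CPM with vehicle and at 45.6, 44.8 and 42.8 CPM with cytokines (0.06, SE 0.068, adjusted p = 0.4; 0 with library totals as the only scaling). Of the 4 STEAP genes, 3 were thus called as higher and Steap2 was not called.

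The Steap4 promoter is printed because this gene had the largest rise. In the 250 bases before its RefSeq start (GRCm38.p6, chr5:7960222-7960471, + strand), the capitals mark 2 matches to the NF-κB consensus at -250 to -241 and -226 to -217.
Steap4 promoter: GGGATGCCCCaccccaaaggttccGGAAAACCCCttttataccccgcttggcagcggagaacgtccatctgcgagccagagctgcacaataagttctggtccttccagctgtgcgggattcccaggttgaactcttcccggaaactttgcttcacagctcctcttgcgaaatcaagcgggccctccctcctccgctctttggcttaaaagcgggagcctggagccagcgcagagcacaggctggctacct
Of all windows 7.25% held a match to this consensus and 1.03% held 2 or more. Both strands were searched. Of the other genes with a RefSeq window, Ftl1 held 1 NF-κB match, and Mt1, Mt2, Fth1 and Tfrc held none. RefSeq windows were found for 6 of the 9 genes, and no windows of Slc40a1, Slc11a2 or Slc39a14 were used here.

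Slc40a1 (chr1:45908068-45926523, - strand) encodes ferroportin, the cell's only known iron exporter, and it was the 1 gene of the 9 that fell. It was at 128, 128 and 120 CPM with vehicle and at 17, 15.2 and 16.8 CPM with cytokines. The groups lay far apart with little spread inside each, and the log2 fold change was -2.94 (SE 0.065, edgeR adjusted p = 1.9e-16), so the cytokine level was 0.131 times the vehicle level. With ML351 it fell from 105, 109 and 110 CPM to 19.5, 19.8 and 20.3 CPM (-2.45, SE 0.063, adjusted p = 1.6e-15). Macrophages express much ferroportin, so their markers are given beside it. Their summed level (11 of 12 found) was 205 to 212 CPM with vehicle, 155 to 175 CPM with ML351, 301 to 324 CPM with cytokines and 275 to 288 CPM with the combination. With cytokines 6 of 11 markers rose and 1 fell, where 35.3% of all genes were called as higher and 37.2% as lower. The rise of the sum was mostly Cd68, which went from 12, 14.2 and 13 CPM to 96, 104 and 90.2 CPM. C1qa hardly moved, from 56.1, 58.5 and 61.7 CPM to 57, 64.2 and 57.7 CPM. Lyz2 fell from 85.7, 83 and 83.6 CPM to 60.1, 60.1 and 59.8 CPM. The sum is therefore a poor measure of macrophage content. Endothelial markers (8 of 8 found) went from 79.5 to 88.1 CPM with vehicle to 15.1 to 20.9 CPM with cytokines, and all 8 fell. The part of either cell type in the fall of Slc40a1 was not tested.

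The order of importer and exporter reversed. Per kilobase, Slc11a2 stood at 0.142 ± 0.00928 times Slc40a1 with vehicle and at 4.25 ± 0.248 times with cytokines (SD, n = 3 each; two-sided exact permutation p = 0.1, the smallest possible, 0.12 adjusted). It was 0.18 ± 0.00857 times with ML351 and 3.33 ± 0.153 times with the combination. The length used for Slc11a2 (6354 bases) equalled that of all its exons, while for Slc40a1 it was 3370 of 9000 bases. The size of this ratio depends on those lengths, but its change between groups does not.

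**Figure D2:**
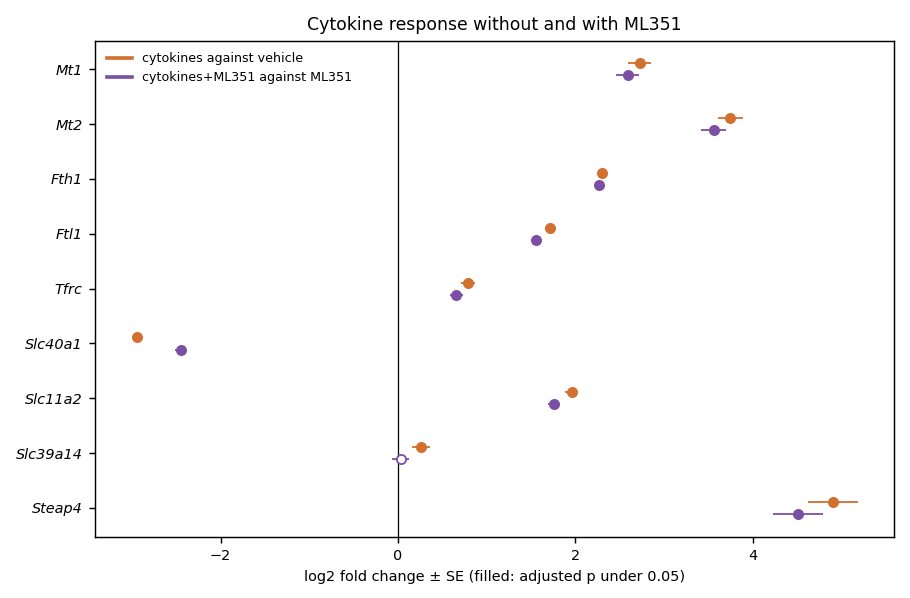
Log2 fold change with its SE (bars) for cytokines against vehicle and for the combination against ML351, 3 libraries per group; filled points passed the edgeR test. Of the 9 genes 7 rise in both comparisons, Slc40a1 falls in both (-2.94 and -2.45), and Slc39a14 is not called in the second.

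**Figure D3:**
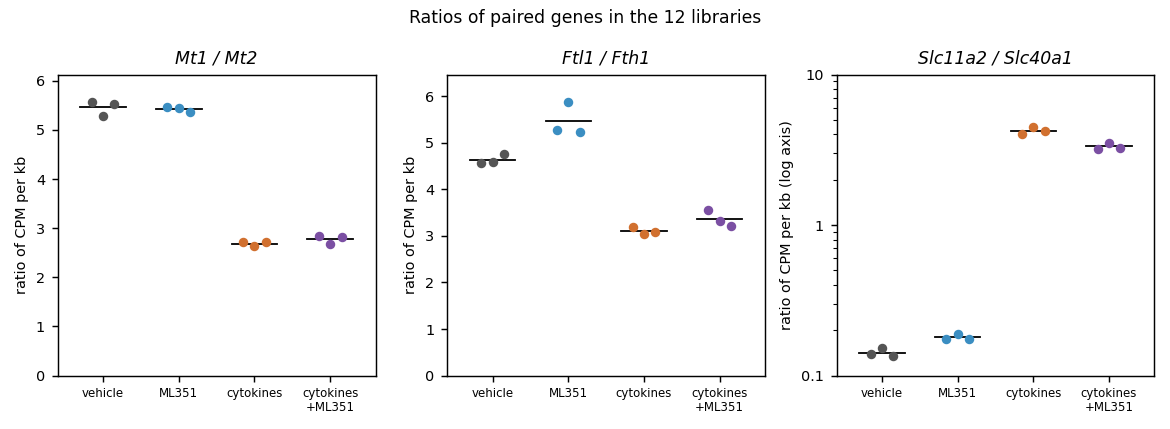
Ratio of CPM per kilobase for 3 pairs of genes in each library, with a bar at the group mean; the right panel has a log axis. Mt1 to Mt2 goes from 5.46 with vehicle to 2.69 with cytokines, Ftl1 to Fth1 from 4.63 to 3.10, and Slc11a2 to Slc40a1 from 0.142 to 4.25.

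Levels of different genes were compared per kilobase of the longest principal transcript, or of all exons joined where none was marked as principal. The length used equalled that of all exons for Slc11a2 (6354 bases), Slc39a14 (10550) and Steap4 (3155). For the other genes it was shorter, such as 3370 of 9000 bases for Slc40a1. Slc11a2, Slc39a14 and Steap4 may therefore stand too low beside the others. With vehicle the order was Ftl1 (1730 ± 91.4 CPM per kilobase), Mt1 (496 ± 80.3), Fth1 (372 ± 12.5), Mt2 (91 ± 15.7), Slc40a1 (37.2 ± 1.28), Tfrc (26.7 ± 3.2), Slc11a2 (5.3 ± 0.488), Slc39a14 (1.66 ± 0.124) and Steap4 (0.897 ± 0.119; SD, n = 3 each). No neighbours in that order overlapped between libraries. With cytokines it was Ftl1 (5680 ± 218 CPM per kilobase), Mt1 (3290 ± 323), Fth1 (1830 ± 103), Mt2 (1230 ± 135), Tfrc (46.2 ± 1.94), Steap4 (27.1 ± 7.23), Slc11a2 (20.6 ± 0.39), Slc40a1 (4.85 ± 0.294) and Slc39a14 (2 ± 0.13). There Steap4 and Slc11a2 differed by less than the SD of Steap4, and with the combination their libraries overlapped. Among 13589 genes with a known length, Ftl1 ranked 11 with vehicle and 4 with cytokines, Mt1 ranked 33 and 6, and Slc40a1 ranked 1271 and 6414.

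ML351 alone moved the 9 genes less than cytokines did. Their median log2 fold change was 0.145, against 0.007 over all genes. In edgeR 0 of 9 were called against vehicle, where 0.0355% of all genes were, and 4 of 9 had an unadjusted p under 0.05 against 8.98% of all genes. DESeq2 called 2, Mt2 (log2 fold change 0.42, adjusted p = 0.029) and Slc40a1 (-0.22, adjusted p = 0.029), where it called 1.13% of genes. The values of Mt1 and Mt2 leaned higher. Mt1 was at 299, 297 and 222 CPM with vehicle and 326, 353 and 416 CPM with ML351 (log2 difference 0.42, SE 0.13, edgeR adjusted p = 0.29), and Mt2 differed by 0.43 (SE 0.13, adjusted p = 0.32). For both, every ML351 library was above every vehicle library, while summed acinar markers were at 560, 337 and 152 CPM with vehicle and 182, 215 and 91.1 CPM with ML351. For Slc40a1 every ML351 library was below every vehicle library, at 105, 109 and 110 CPM against 128, 128 and 120 CPM (-0.21, SE 0.057, adjusted p = 0.21). Summed macrophage markers were lower too, at 155 to 175 CPM with ML351 against 205 to 212 CPM with vehicle. Their part in the Slc40a1 difference was not tested. Groups did not overlap for these 3 genes, Mt1, Mt2 and Slc40a1, against 15.9% of all genes. The remaining genes lay between -0.11 (Steap4, SE 0.36) and 0.18 (Slc39a14, SE 0.097).

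On top of cytokines ML351 gave 1 call among the 9 in edgeR, Slc40a1 as higher, where 1.43% of all genes were called and 0.646% as higher. Slc40a1 was at 19.5, 19.8 and 20.3 CPM with the combination and at 17, 15.2 and 16.8 CPM with cytokines. The groups did not overlap, and the log2 fold change was 0.28 (SE 0.067, adjusted p = 0.049). The call is fragile. It ended in 16 of 20 alternatives, with an adjusted p of 0.036 to 0.17 over them, and leaving out any library other than ML351 replicate 3 ended it. The mean was 16.3 ± 0.992 CPM with cytokines and 19.9 ± 0.385 CPM with the combination, on a vehicle level of 125 ± 4.33 CPM (SD, n = 3 each).

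Of the 9 genes 4 had an unadjusted p under 0.05 in this comparison, against 15.7% of all genes, and 4 had groups that did not overlap, against 20.4%. The latter were Mt1, Mt2, Slc40a1 and Steap4. Mt1 was at 1610, 1960 and 1850 CPM with cytokines and 2270, 2050 and 2290 CPM with the combination (log2 difference 0.29, SE 0.12, edgeR adjusted p = 0.29). Mt2 differed by 0.24 (SE 0.12, adjusted p = 0.38). Steap4 was at 111, 67.5 and 77.6 CPM with cytokines and at 63.9, 56.2 and 58.9 CPM with the combination (-0.52, SE 0.21, adjusted p = 0.28). Cytokine replicate 1 was at the combination's far side in all 3 genes, and without it the difference of Steap4 was -0.29 (adjusted p = 0.53), that of Mt1 0.20 and that of Mt2 0.15. Acinar markers moved with this comparison too, from 34.3, 540 and 784 CPM with cytokines to 1060, 1290 and 888 CPM with the combination, and their part in the metallothionein values was not tested. Fth1 (-0.13, SE 0.055, adjusted p = 0.28) had groups that overlapped, as did Ftl1 (-0.01), Tfrc (0.03), Slc11a2 (-0.07) and Slc39a14 (-0.06). The sign turned with library totals as the only scaling for Ftl1 (0.04).

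Averaged over both backgrounds, the ML351 effect was called for 0 of the 9 genes in edgeR, where 1.55% of all genes were, and 3 had an unadjusted p under 0.05 against 16.9% of all genes. They were Mt1 (log2 fold change 0.35, SE 0.088, adjusted p = 0.075), Mt2 (0.33, SE 0.091, adjusted p = 0.093) and Fth1 (-0.11, SE 0.039, adjusted p = 0.16). DESeq2, which called 4.84% of the genes for which it gave an adjusted p, called all 3 (adjusted p = 0.018, 0.0032 and 0.021). Within each background, Mt1 and Mt2 were higher in all 3 libraries with ML351 than in any library without it.

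**Figure D4:**
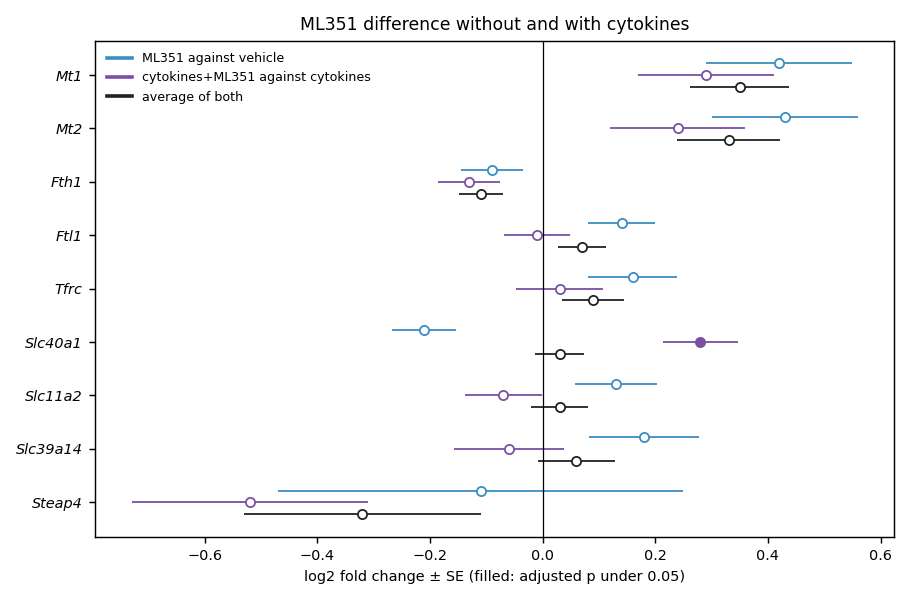
Log2 difference with its SE (bars) for ML351 against vehicle, for the combination against cytokines, and for their average; filled points passed the edgeR test. Mt1 and Mt2 lie above 0 in both backgrounds, Slc40a1 lies at -0.21 without cytokines and at 0.28 with them, and the latter is the only call.

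The interaction asks whether ML351 acts differently with and without cytokines. In edgeR it was called for 0 of the 9 genes, where 0.0071% of all genes were, and 1 of the 9 had an unadjusted p under 0.05 against 8.23% of all genes. That gene was Slc40a1, with a log2 interaction of 0.49 (SE 0.088, unadjusted p = 3.5e-05, adjusted p = 0.17). DESeq2 called it (0.48, adjusted p = 0.00099), where it called 1.56% of the genes for which it gave an adjusted p. The other interactions lay between -0.41 (Steap4, SE 0.42) and -0.04 (Fth1, SE 0.078), with adjusted p from 0.63 to 0.95. In Mt1 it was -0.13 (SE 0.18) and in Mt2 -0.19 (SE 0.18). Neither was called (edgeR adjusted p = 0.9 and 0.85), which does not show the metallothionein rises with and without ML351 to be equal.

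Other genes of metal handling were looked at in 7 lists of 122 genes, written with earlier results of these data known, of which 108 had a row. With cytokines 47 rose and 39 fell in edgeR, with a median log2 fold change of 0.06 against -0.024 over all genes. All genes were called at 72.5% in this comparison, 35.3% as higher and 37.2% as lower. The counts of each list below stand beside these shares, and on their own they say little about a list. With ML351 in both arms 47 rose and 41 fell, where 35.2% of all genes were called as higher and 36.4% as lower.

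**Figure D5:**
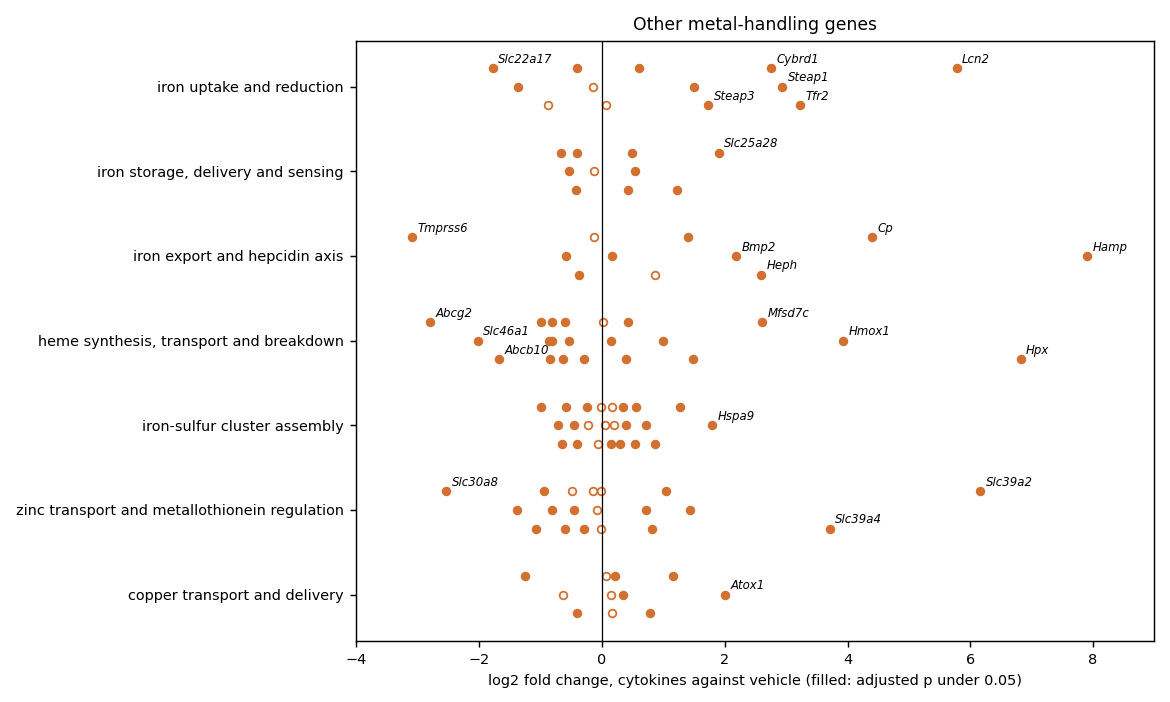
Log2 fold change for cytokines against vehicle of each gene in the 7 lists (1 row per list, points spread vertically for sight only); filled points passed the edgeR test and genes past 1.6 in either direction are named. Hamp at 7.91 lies farthest right, and Slc30a8 at -2.54 is the lowest of the zinc list.

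Of 11 genes in the list of iron export and the hepcidin axis 6 rose and 3 fell (median 0.87). Hamp (chr7:30942368-30944032), which encodes hepcidin, the peptide hormone that binds ferroportin and sends it to degradation, was at 1.06, 0.747 and 1.06 CPM with vehicle and at 217, 225 and 252 CPM with cytokines. Vehicle libraries held only 25, 16 and 23 counts, and no library of the 2 groups came close to the other. The long noncoding gene Gm44662 overlaps 1665 of its bases on the other strand. The log2 fold change was 7.91 (SE 0.12, edgeR adjusted p = 2e-18), and 7.93 (SE 0.12, adjusted p = 1.8e-18) with ML351 in both arms. Hepcidin and ferroportin messages thus moved in opposite directions. The mouse has a near-identical copy, Hamp2, not analysed here, and how reads of both were assigned is not given in the sources used here. Cp, which encodes ceruloplasmin, a ferroxidase that works with ferroportin, rose from 3.99, 1.07 and 1.84 CPM to 44, 37.7 and 66.7 CPM (4.40, SE 0.48, adjusted p = 3.3e-05). The related Heph was low and scattered, at 0.594, 1.73 and 0.368 CPM with vehicle and 3.47, 5.54 and 7.2 CPM with cytokines (2.59, SE 0.87, adjusted p = 0.024), and its call ended without vehicle replicate 1 (0.078) or 4 (0.078) or cytokine replicate 4 (0.062). Bmpr1a, a receptor upstream of hepcidin, fell by 0.38 on the log2 scale.

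Of 13 genes of iron uptake and reduction 7 rose and 3 fell (median 0.6). Lcn2, whose product lipocalin 2 binds iron-laden siderophores, rose from 41.6, 30.9 and 17.6 CPM to 1530, 1580 and 1870 CPM (log2 fold change 5.78, SE 0.32, edgeR adjusted p = 2.1e-07). Picalm (1.5) and Snx3 (0.60), which serve transferrin receptor traffic, rose as well. Trf, the transferrin gene, was scattered at 12.8 to 23.2 CPM with vehicle and 13.6 to 15.3 CPM with cytokines (-0.15, SE 0.42, adjusted p = 0.76). Slc39a8, the close relative of Slc39a14, was not called either (-0.88, SE 0.51, adjusted p = 0.13).

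Of 10 genes of iron storage, delivery and sensing 5 rose and 4 fell (median 0.15). The 4 that fell were Ireb2 (log2 fold change -0.66) and Aco1 (-0.40), which encode the iron regulatory proteins, Fbxl5 (-0.53), which marks one of them for decay, and Ncoa4 (-0.42), the receptor that carries ferritin to the lysosome. Ireb2, for example, went from 63.6, 71.5 and 71 CPM to 43.2, 40.4 and 46.5 CPM (SE 0.07, edgeR adjusted p = 1.6e-07). Slc25a28, a mitochondrial iron carrier, rose from 19.6, 18.8 and 20.1 CPM to 71, 77.9 and 69.7 CPM (1.90, SE 0.067, adjusted p = 9.4e-14). Mcoln1, a channel that lets iron out of lysosomes, rose too (1.22).

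Heme genes moved both ways, with 8 of 21 risen and 12 fallen (median -0.53). Hmox1, the heme oxygenase that frees iron from heme, rose from 61.5, 67 and 49.4 CPM to 803, 972 and 942 CPM (log2 fold change 3.93, SE 0.11, edgeR adjusted p = 7.7e-13). Alas1, the first enzyme of heme synthesis, rose (0.99), and the porphyrin exporter Abcg2 fell (-2.80). Of 23 genes of iron-sulfur cluster assembly 10 rose and 7 fell (median 0.14). The 3 of smallest p, Hspa9 (1.80), Nfu1 (1.27) and Mms19 (0.87), all rose. Others were lower, such as Nfs1 (mean 48.7 CPM with vehicle and 32.3 CPM with cytokines) and Glrx5 (78.5 and 50.2 CPM).

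Zinc and copper genes were mixed as well. Of 19 genes of zinc transport and metallothionein regulation 6 rose and 8 fell (median -0.15). Slc30a1, which exports zinc at the cell surface and is, like the metallothioneins, a known target of MTF1, rose from 13.8, 14.2 and 13 CPM to 38.3, 40.2 and 31.8 CPM (log2 fold change 1.43, SE 0.13, edgeR adjusted p = 1.1e-07). Slc30a8, the zinc transporter of insulin granules, fell from 805, 785 and 910 CPM to 133, 144 and 151 CPM (-2.54, SE 0.098, adjusted p = 6.2e-12), in libraries where 8 of 10 β-cell markers fell. It is 1 of those 8. Slc39a6 (1.05) rose and Slc39a10 (-1.39) fell. Of 11 copper genes 5 rose and 2 fell (median 0.16), with the chaperones Atox1 (2.00) and Sco1 (1.16) risen and the copper pump Atp7a fallen (-1.26).

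Of the 108 list genes, edgeR called 2 for ML351 against vehicle (0.0355% of all genes were called), 3 for the combination against cytokines (1.43% of all genes) and 6 for the average (1.55% of all genes). Atp7a was lower in both backgrounds on average, at 99.5, 93.5 and 87.5 CPM with ML351 against 114, 129 and 133 CPM with vehicle, and at 45.1, 48.7 and 49.4 CPM with the combination against 53.6, 52 and 51.5 CPM with cytokines. The averaged log2 fold change was -0.28 (SE 0.05, edgeR adjusted p = 0.014), a call kept in all 19 alternatives. Against vehicle alone, Atp7a (-0.43) and Mcoln1 (0.34) were called, each at an adjusted p of 0.042. On top of cytokines Fbxl5 rose (0.27, adjusted p = 0.038), as did Nubp1 (0.33, an adjusted p that rounds to 0.05), and Slc39a6 fell (-0.28, 0.048). In the average Fbxl5 (0.18), Mcoln1 (0.17), Cpox (0.24), Slc30a4 (0.24) and Slc30a7 (0.23) rose. Apart from averaged Atp7a, each of these 10 calls ended when vehicle replicate 1, any 1 of the 3 cytokine libraries or combination replicate 1 was left out, and over all alternatives their adjusted p reached 0.26 at most.

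For each of the 9 genes the genes of most similar pattern were taken by Pearson r of log2 CPM over the 12 libraries among 8853 genes of average log2 CPM of 3 or more, as a description. Since cytokines moved most genes, r was high nearly everywhere. The nearest to Mt1 was Mt2 (r = 0.999), followed by Ube2f and Tmem128 (0.996 each). Nearest to Fth1 were Slc19a2, Psmb10 and Sod2 (0.999 each), and nearest to Ftl1 were Trib3 (0.999), Fbxw17 and Rmdn3 (0.998 each). Slc40a1 was most like Wnk4 and Gatm (0.998 each) and Syt3 (0.997), which fell with it. Slc11a2 was most like Batf2 (0.998), Gfer and Oasl2 (0.997 each), and Steap4 like Bcl3 (0.998), Gja4 and Kpna4 (0.997 each). For Tfrc the highest r was 0.985 (Pyroxd1, Idh3b and U2af2), and for Slc39a14 it was 0.857 (Sec23b).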

How the data were processed

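The authors deposited whole-number read counts per gene symbol, 1 column per library, not normalized. Per the submitters' processing notes, FastQC, STAR, featureCounts, Subread and DESeq2 and the build mm10 were used, without versions or roles. Per the labels' protocols the SMARTSeq v4 libraries are nonstranded. The annotation is not given in the sources used here.

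All 12 libraries entered one edgeR 4.0.16 model (R 4.3.3; TMM, filterByExpr, which removed 0 genes, robust quasi-likelihood F-test), with Benjamini-Hochberg adjustment over 14089 genes per contrast and a threshold of 0.05. SE was obtained as |log2 fold change|/√F. The scripts were tested on simulated data. Alternatives were DESeq2 1.42.0 (its adjusted p left out where it gave none), other scalings and filters, no insulin genes, 2 groups alone, a replicate block and each library left out. The run without a filter repeats the main run, since the filter removed 0 genes. It is included wherever alternatives are counted. Replicates differed beyond sampling noise (chi-square per degree of freedom 4.11 to 21.3). Coordinates, lengths and UTRs came from GENCODE M21 (GRCm38, the assembly of mm10), promoters from RefSeq.

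The 9 genes, lists and tests were chosen with earlier results of these data known. Named list genes are a set of known iron and zinc genes, the 3 of smallest p per list at an average log2 CPM of 1 or more, and any called with ML351.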

Additional observations from a re-analysis of the deposited data

Results flagged for a closer look

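For Slc40a1, the ferroportin gene, the libraries with ML351 lay on opposite sides of those without it in the absence and presence of cytokines. Without cytokines every ML351 library (105, 109 and 110 CPM) was below every vehicle library (128, 128 and 120 CPM). With cytokines every combination library (19.5, 19.8 and 20.3 CPM) was above every cytokine library (17, 15.2 and 16.8 CPM). Summed macrophage markers were lower with ML351 in both backgrounds. They were at 155 to 175 CPM against 205 to 212 CPM with vehicle, and at 275 to 288 CPM with the combination against 301 to 324 CPM with cytokines. Their part in the Slc40a1 values was not tested. Without cytokines the Slc40a1 difference was not called (-0.21, edgeR adjusted p = 0.21), and its call with cytokines (0.28, adjusted p = 0.049) was lost in 16 of 20 alternatives. The interaction of Slc40a1 was 0.49 on the log2 scale (SE 0.088), and in edgeR its adjusted p over 14089 genes was 0.17, which misses the threshold of 0.05. Over the 19 alternatives it lay between 0.44 and 0.52, with an adjusted p from 0.00099 (DESeq2) to 0.41.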

How the results depend on the processing

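Of 1062 values of the 9 genes recomputed under alternatives, 1023 kept their direction and side of the threshold, 20 lost and 7 gained a call and 12 changed sign. The 1062 include the run without a filter, which could not differ from the main run because the filter removed 0 genes. For cytokines against vehicle and the combination against ML351 the counts of genes called stayed within 1.5 times. ML351 contrasts were less stable, and the causes were not tested. Against vehicle 5 genes were called, but 0 with DESeq2 size factors or without Ins1 and Ins2, 15 at 5 CPM, 16 with 2 groups alone, 110 with DESeq2 (2 of the 9) and 0 to 17 with a library left out. Combination against cytokines gave 202, but 78 with library totals, 59 with 2 groups alone, 527 with DESeq2 and 54 to 236 with a library left out; of the 9 it called 0 under size factors, library totals, no insulin genes or 2 groups alone, and 0 to 1 with a library left out. The average gave 218, but 398 with library totals (1 of the 9), 353 at 5 CPM, 576 with DESeq2 (3 of the 9) and 52 to 270 with a library left out. The interaction gave 1, but 0 with library totals, 58 with DESeq2 (1 of the 9) and 0 to 1 with a library left out.

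Higher calls were 40% (ML351 against vehicle), 45% (combination against cytokines) and 43.1% (average) of calls, against 85.7%, 71.8% and 85.4% with library totals and, for the latter contrasts, 33.3% and 30.8% with size factors. Same-numbered libraries did not deviate together (2 of 13 pairs over r = 0.1; 3 of 12 libraries were most like one of their own number). With the replicate block 0, 53, 88 and 0 genes were called for ML351 against vehicle, the combination against cytokines, the average and the interaction, and 0 of the 9; Slc39a14 was at -0.03 in the combination against ML351 and the Mt1 interaction at 0.03.

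Signs also turned for Slc39a14 in the combination against ML351 (-0.05 with library totals, 0 at 5 CPM, -0.03 without ML351 replicate 3 or combination replicate 4), for Ftl1 against cytokines (0.04 with library totals, 0.02 without cytokine replicate 4) and Tfrc (0 without cytokine replicate 3, -0.03 without combination replicate 1, -0.03 to 0.07 with any left out), for Steap4 with ML351 (0.20 without ML351 replicate 2, -0.4 to 0.20 over all) and for averaged Slc11a2 (0 without vehicle replicate 4, 0 to 0.06 over all). Of 932 values of other named genes, recomputed under alternatives chosen after seeing the data, 125 lost a call and 10 changed sign: Mtf1 (0.01 with size factors, DESeq2 or 2 groups alone, 0.01 to 0.05 with a library left out), Steap2 (0 with library totals) and Trf (0.19 without vehicle replicate 2, -0.3 to 0.19 over all). Depth limits the lowest levels, such as Steap4 and Hamp without cytokines.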

Other observations

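The combination libraries stood apart from the ML351 libraries in acinar markers, with 10 of 13 higher in edgeR, where 35.2% of all genes were called as higher. For cytokines against vehicle and for the combination against cytokines 0 of the 13 were called. Summed levels were 182, 215 and 91.1 CPM with ML351 and 1060, 1290 and 888 CPM with the combination.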
